A study of Mus musculus with 37 samples.

Results

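The early response of wild-type (WT) macrophages to the Toll-like receptor 4 (TLR4) agonist KLA was followed by setting the polyA RNA-seq library taken 6 h after KLA beside the library taken at 0 h. These were 2 of the 8 RNA-seq samples, and of the 37 samples, of a study that asked how the clock protein Bmal1, encoded by Arntl, bears on inflammatory gene expression. They were chosen by their labels as WT at 0 and 6 h, and no measured value entered that choice. The other RNA-seq libraries were WT at 24 and 48 h and Arntl-/- at 0, 6, 24 and 48 h, and the ChIP-seq samples were not used here. The cells were bone marrow-derived macrophages (BMDMs) of male mice of 6 to 9 weeks of age, whose marrow was grown for 6 days with M-CSF (20 ug/ml) in RPMI-1640 with 10% FCS. M-CSF is the growth factor that drives marrow precursors to become macrophages. KLA, or Kdo2-Lipid A, is the lipid anchor of bacterial lipopolysaccharide in chemically defined form. The labels give the strain of both genotypes as C57BL/6J, whereas the study's methods put the Arntl-/- mice on C57BL/6, and the sources used here differ on the WT mice, which are described as bought from a supplier and also as littermates of the Arntl-/- mice. They do not say whether marrow of several mice was pooled or whether the 0 h cells were handled in parallel. Each time had 1 library, so no difference described below has a replicate check and none was tested.

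TLR4 binds lipid A together with Ly96 (MD-2) and Cd14. It signals through the adaptor MyD88, which leads to NF-κB and AP-1 and to the rapid transcription of cytokines, chemokines and inhibitors of the pathway, and through the adaptor TRIF, which leads to IRF3 and interferon-β. Secreted interferon then acts on the same cells through factors that include STAT2 and IRF9 and turns on a further set of genes, many of whose promoters carry the interferon-stimulated response element. Transcripts of the first set commonly peak within the first hours, and the interferon-driven set follows.

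The WT libraries held 13080308 reads on genes at 0 h and 27036776 at 6 h, worked out from the deposited FPKM, so the 6 h library was the deeper. Values below are FPKM, a level per length of transcript, divided by a median-of-ratios size factor (1.01 at 0 h and 1.13 at 6 h) and called scaled FPKM. A change is the log2 of the ratio of 6 h to 0 h after 0.1 was added to each level, and it counted as a change at 1.5-fold, the line drawn in the study's own plots. Of 24016 genes in the table, 9897 had a mean scaled FPKM multiplied by length in kb of at least 50 over the 8 libraries and were analyzed, and 26 of these passed only because of the WT 6 h library. Of the 26, 7 were at least 1.5-fold higher at 6 h, so that without them 422 in place of 429 genes were, and 102 in place of 104 were at least 2-fold higher. The 1 list member among the 26 was Pdgfrb. A range in parentheses after a fold is its 95% counting interval (Clopper-Pearson), which covers counting error only and treats reads, which may include both mates of a fragment and PCR copies, as independent.

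Macrophage markers were expressed in both libraries, at levels that at 0 h ran from 122 scaled FPKM for the efferocytosis receptor gene Mertk to 9926 for Lyz2. Of 14 macrophage markers analyzed, the lysozyme gene Lyz2 stood at 9926 at 0 h and 7561 at 6 h, Emr1 (F4/80) at 2088 and 1459, and the M-CSF receptor gene Csf1r at 1672 and 1230.2 scaled FPKM. Of 10 B cell markers, 14 T and NK cell markers and 12 mast cell, basophil and eosinophil markers, none that had a value reached the minimum. The B cell marker Ighm and the T cell marker Trac had no value. In the same order, the summed scaled FPKM of the rest at 0 and 6 h were 29.9 and 35.6, 2.82 and 6.59, and 2.61 and 4.09. Of 12 neutrophil markers Ly6g had no value and 4 were analyzed (sum of those with a value 1797 and 1524, with Mpo and Elane at 0). The collagenase gene Mmp8 was at 1055 and 691 (log2 -0.61, level-corrected -0.18), S100a8 at 308 and 282, the G-CSF receptor gene Csf3r at 211 and 285, and S100a9 at 164 and 207, so that they moved in both directions. Of 10 dendritic cell markers only Bst2 was analyzed, while Flt3 was at or near 0. Stromal and endothelial markers were present at a low level, with 15 of 20 analyzed and a sum of 1265 at 0 h and 1550 at 6 h. Of these, Dcn (decorin) was at 16.8 and 42.0, the collagen chaperone gene Serpinh1 at 30.6 and 51.6, and the PDGF receptor gene Pdgfrb at 6.92 and 12.1. All 3 were at least 1.5-fold higher at 6 h, where 4.33% of all genes were, and Pdgfrb passed the minimum only through the 6 h library. The part of such cells in the results below was not tested, and in bulk RNA fewer cells of a type and less RNA per cell cannot be told apart.

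Of the 9897 genes, 429 (4.33%) were at least 1.5-fold higher at 6 h than at 0 h and 312 (3.15%) at least 1.5-fold lower, while 92.5% lay within 1.5-fold and the median change was -0.03. The larger changes were mostly rises. At least 2-fold, 104 genes (1.05%) were higher and 10 (0.101%) lower, and at least 4-fold, 17 were higher and 0 lower. The counting interval excluded a ratio of 1 for all 429 and all 312 genes, and lay beyond 1.5-fold for 174 and 130 of them. The split of rises and falls depended on scaling: with the values as deposited, which moved the median of all genes to 0.13, 848 genes were higher and 70 lower.

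**Figure D1:**
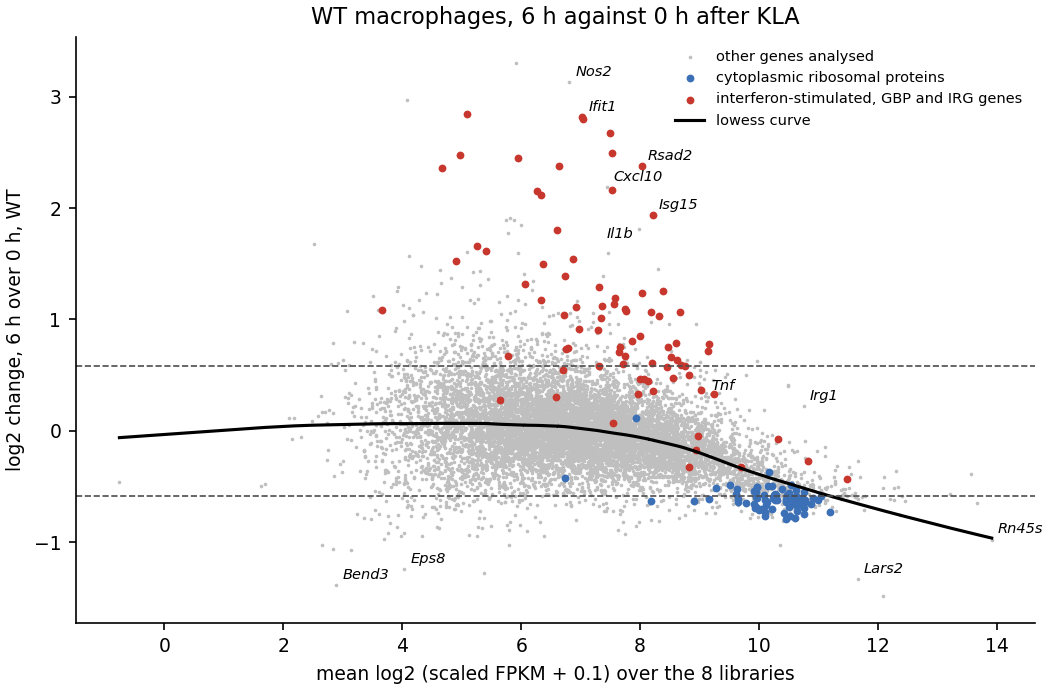
Change from 0 to 6 h after KLA in WT BMDMs (vertical axis, log2) against the mean level of each gene over the 8 libraries (horizontal axis, log2 of scaled FPKM + 0.1) for the 9897 genes analyzed, 1 library a time. Dashed lines mark 1.5-fold and the black line is a lowess curve. Interferon-stimulated, GBP and IRG genes (red) lie mostly above the upper line at middle levels, and ribosomal protein genes (blue) lie around the lower line at high levels, where the curve itself falls.

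The change also followed expression level. When the genes were divided into 10 equal groups by mean level over the 8 libraries, the median change went from 0.06 in the lowest group to -0.36 in the highest, and ordering by the 6 libraries other than these gave the same -0.36. In the highest group 91.9% of genes were lower at 6 h, and it held 153 of the 312 falls. The Arntl-/- cells, whose 0 h library was the deeper (18166571 reads against 15461838 at 6 h), went the other way, from -0.13 in the lowest group to 0.18 in the highest, where 12.1% were lower. The median gene of the highest group had 1.79 reads per exon base at 0 h and 3.25 at 6 h in WT, and the authors counted with a limit of 3 tags per position according to the file header. The part of that limit in this slope was not tested. Where it matters, the value is also given with the lowess curve of change on level subtracted, called level-corrected below. On that scale 385 genes (3.89%) were at least 1.5-fold higher and 183 (1.85%) lower, and 354 and 143 genes passed in the same direction on both scales.

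**Figure D2:**
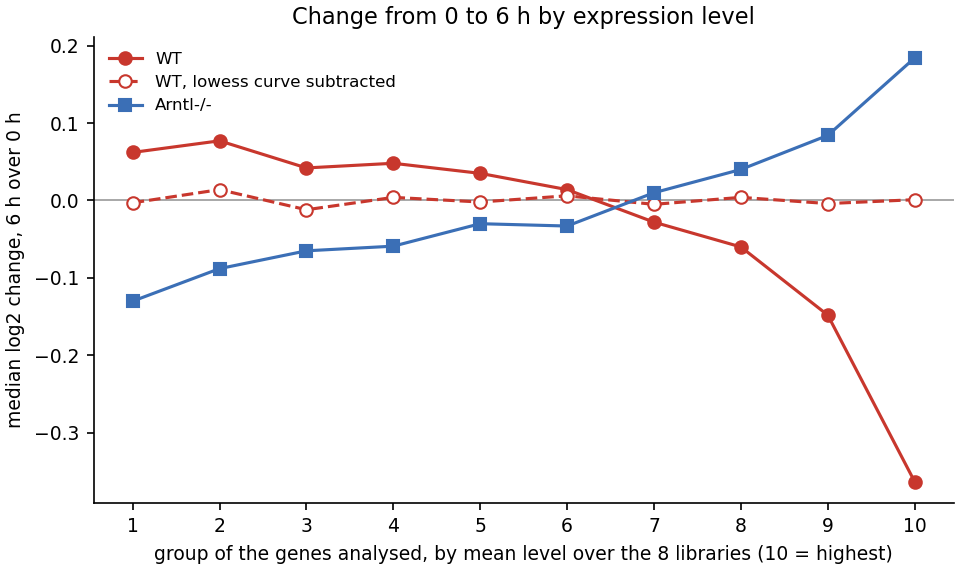
Median log2 change from 0 to 6 h (vertical axis) in each of 10 equal groups of the 9897 genes by mean level (horizontal axis, 10 the highest). WT (red) runs from 0.06 to -0.36 and Arntl-/- (blue) from -0.13 to 0.18, and the WT medians with the lowess curve subtracted (open circles) lie near 0.

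The receptor and its first relays were mostly within 1.5-fold, as were 92.5% of all genes. Tlr4 was at 165 scaled FPKM at 0 h and 159 at 6 h, 0.966-fold (0.905 to 1.03). Its lipid-binding partner Ly96 was at 106 and 124, and its coreceptor Cd14 at 1706 and 1458. The counting intervals of Tlr4 and Ly96 included no change, and Cd14 was lower on the main scale (log2 -0.23) but higher after level correction (0.35). Of 16 genes of the TLR4 complex and other TLRs analyzed, 1 was higher, Ly86 (24.3 and 40.7, 1.67-fold), which encodes the MD-1 partner of the TLR-like receptor RP105. In the same list 1 was lower, Tyrobp (1920.3 and 1274), the immune-receptor adaptor DAP12, and it stood at -0.04 after level correction, when Tlr2 was also past 1.5-fold (0.74, from 0.54). The adaptor gene Myd88 was at 368 and 390.3, and of 23 adaptor and kinase genes only Traf1, a TNF receptor-associated factor, was at least 1.5-fold higher (179 and 277, 1.54-fold). The median over those 23 genes was 0.14. The counts of both lists stand beside 4.33% of all genes higher and 3.15% lower, and nothing is read from them.

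The genes of NF-κB itself were also within 1.5-fold with 1 exception, where 92.5% of all genes were within it. Nfkb1 (p50/p105) was at 285 and 335 scaled FPKM at 0 and 6 h, Rela (p65) at 294 and 287, and Relb at 200.1 and 199. None of these 3 subunit genes reached 1.5-fold. The inhibitor gene Nfkbia (IκBα), an immediate target of NF-κB, was at 547 at 0 h and 566 at 6 h, 1.04-fold (0.9801 to 1.09). Its log2 change was 0.05, and 0.37 after level correction. Of the 15 subunits and inhibitors, 1 was past 1.5-fold, the IκBε gene Nfkbie (101 and 157, 1.55-fold), and the median was 0.14. Of all genes 4.33% were at least 1.5-fold higher, and nothing is read from this count. The median over all 9897 genes was -0.03.

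Among the 15 cytokines high enough to be analyzed, the largest rise was that of Il1b, the inflammasome-processed interleukin, from 46.2 to 162 scaled FPKM, 3.51-fold (2.92 to 4.25). Csf1, which encodes M-CSF itself, rose from 24.6 to 84.7 (3.43-fold), and Il15, a cytokine that sustains NK and memory T cells, from 34.3 to 91.3 (2.66-fold). These were the 3 genes past 1.5-fold of the 15, and 0 fell, where 4.33% of all genes were higher and 3.15% lower. Il1a was at 19.2 and 26.6 (1.38-fold, 1.07 to 1.80). Tnf, the prototype early cytokine, was already at 508 at 0 h, a level above that of 89.4% of the genes analyzed in the same library, and at 631 at 6 h (1.24-fold, 1.18 to 1.31).

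Several cytokines of the list were too low to be analyzed, 19 of 34 in all. Il6 had 0 reads at 0 h and 76 reads at 6 h, a scaled FPKM of 14.4, which was at least 11-fold higher than the level that 3 reads would give in the 0 h library. In the Arntl-/- cells Il6 was at 5.34 and 12.0, from 18 and 33 reads. Il10, the main anti-inflammatory cytokine of macrophages, was at 14.9 and 17.5 from 41 and 111 reads, and its interval of 0.814 to 1.73 included no change. Il12b had 7 and 14 reads. Ifnb1, the interferon-β gene, had 0 reads at both times, which allows up to 3 reads in each library, and in the Arntl-/- cells it had 1 and 4 reads.

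Of 15 chemokines analyzed 4 were at least 1.5-fold higher, where 4.33% of all genes were. They were among the 5 with the lowest levels at 0 h, which is the library that also divides the fold, so that low levels and large folds are linked by construction. Cxcl10, the interferon-inducible ligand of Cxcr3, went from 74.6 to 341 (4.56-fold, 3.91 to 5.37). The neutrophil chemokine Cxcl1 went from 13 to 48.6 (3.72-fold from 26 and 224 reads), Ccl5 (RANTES) from 149 to 407 (2.74-fold) and Cxcl3 from 177 to 342. Cxcl2, another neutrophil chemokine, was at 565 at 0 h and 798 at 6 h, 1.41-fold, just under the 1.5-fold line, and past it after level correction (log2 0.85). By contrast Ccl3 was at 1111 and 1076, Ccl4 at 857 and 768, and the monocyte attractant Ccl2 at 2415 and 1846. For these 3 the main scale gave log2 changes of -0.05, -0.16 and -0.39 and the level-corrected scale 0.37, 0.11 and 0.12, so that the direction depended on the scale. Of the 15 chemokines 1 was at least 1.5-fold lower, the platelet factor gene Pf4 (2158 and 1435), and it stood at -0.05 after level correction. Of 9 chemokine receptor genes 1 was higher, the chemerin-binding receptor Ccrl2 (51.3 and 105, 2.05-fold). Fpr1 and Fpr2 were past 1.5-fold after level correction alone (0.59 and 0.70), and the fractalkine receptor Cx3cr1 was at 51.5 and 60.8.

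Levels at 0 h differed widely among textbook targets of TLR4. Irg1, which makes itaconate, was at 1029.9 at 0 h and 1203 at 6 h, a log2 change of 0.22 that was 0.74, past 1.5-fold, after level correction. The stress-induced repressor gene Atf3 was at 875 and 892 (log2 0.03, level-corrected 0.41). Jun was at 750.0 and 678, and its direction turned after correction (-0.15 and 0.15). The levels of Irg1, Atf3 and Jun at 0 h stood above those of 96.5%, 95.3% and 94.1% of the genes analyzed, and those of Ccl2 and Ccl3 above 99.5% and 97.0%. The acute-phase gene Saa3 was at 5559 and 3293 and the scavenger receptor gene Marco at 1947 and 1274. Others were lower in that order, with Tnfaip3 above 69.9% of genes, Ptgs2 above 31.1% and Nos2 above 1.36%. In the Arntl-/- 0 h library Tnf, Ccl2, Irg1 and Atf3 were at 605, 2161, 1008 and 863, so the high 0 h level of these 4 was seen in both genotypes. Whether the 0 h cells had met a stimulus in culture was not tested.

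**Figure D3:**
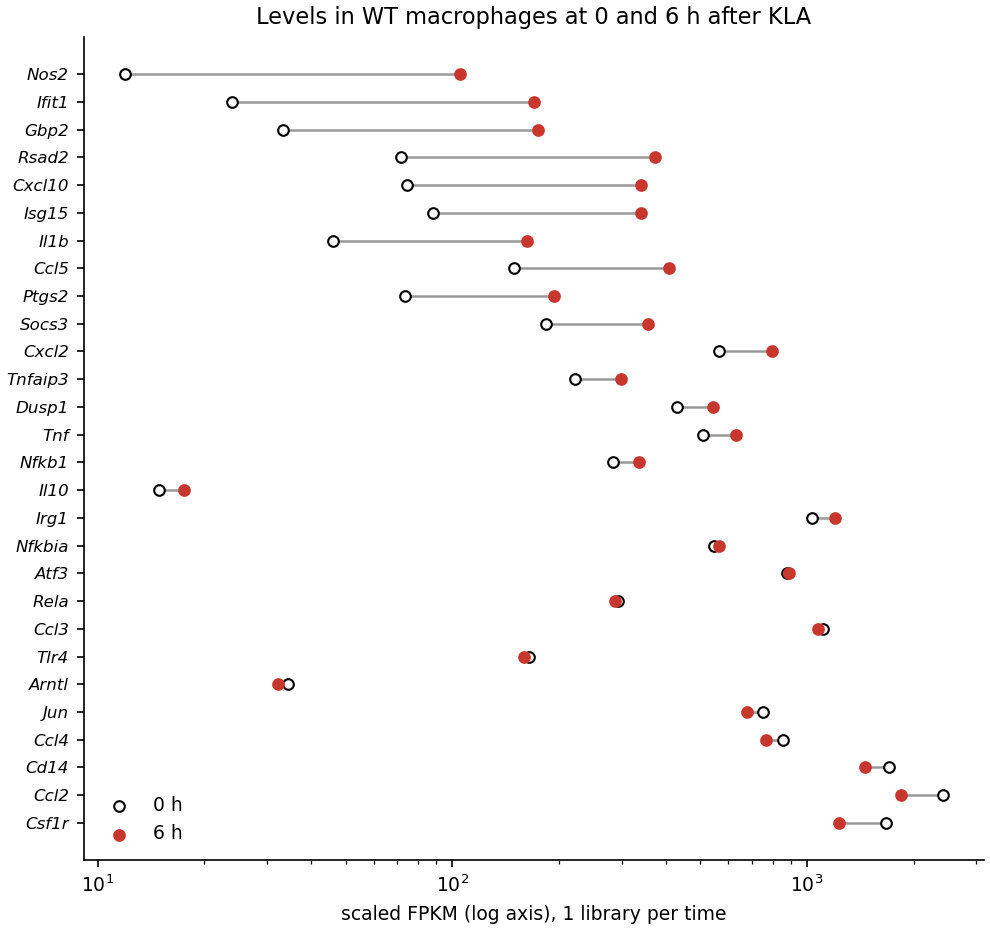
Scaled FPKM (log axis) of 28 genes in WT BMDMs at 0 h (open circles) and 6 h (red) after KLA, 1 library a time and ordered by change. Nos2, Ifit1 and Gbp2 moved furthest, from 11.9, 24.0 and 33.4 to 105, 169.9 and 174, while the circles of Nfkbia, Atf3 and Ccl3 nearly coincide.

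Interferon-stimulated genes gave the largest number of rises, although the smaller list of GBP and IRG genes, described below, had the larger share. Of 65 analyzed, 42 were at least 1.5-fold higher, 25 of them at least 2-fold, and 0 were at least 1.5-fold lower, with a median change of 0.75 (0.79 level-corrected, with 47 at least 1.5-fold higher). The share of all genes that were at least 1.5-fold higher was 4.33%. The largest change within the list was that of Mx2, followed by Ifit1, Cmpk2, Ifit3 and Ifit2. Ifit1, whose product binds foreign RNA ends, rose from 24.0 to 169.9 scaled FPKM, 7.05-fold (5.94 to 8.49). Ifit2 rose from 43.2 to 244, Ifit3 from 37.4 to 238, and I830012O16Rik, listed in RefSeq as Ifit3b, from 9.16 to 91.0. The last had the largest change of all genes analyzed, 9.84-fold (7.21 to 14.1), but it is a near copy of Ifit3 and how the counting divided their reads is not known.

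The myxovirus resistance GTPase genes Mx2 and Mx1 went from 6.87 to 49.9 and from 35.8 to 126. Rsad2 (viperin), which makes a chain-terminating nucleotide, and its neighbour Cmpk2, a nucleotide kinase gene, went from 71.6 to 372 and from 33.4 to 232. Both pairs moved by more than 3-fold in each member, with folds of 7.16, 3.50, 5.19 and 6.95. Isg15, the ubiquitin-like modifier, rose from 88.4 to 339 (3.83-fold), and Usp18, the protease that removes it and damps interferon receptor signaling, from 50.2 to 225 (4.48-fold). Ifi44 went from 13.5 to 74.4. Pydc4, a pyrin-domain gene of the Ifi200 cluster, went from 2.52 to 20.4 but from only 14 and 262 reads, so that its 7.85-fold had an interval of 4.75 to 15.1.

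The following genes that carry the interferon signal had smaller folds than the Ifit and Mx genes. Stat2 rose from 219 to 377 (1.72-fold), Irf9 from 134 to 219 (1.63-fold) and Irf7, the interferon-inducible activator of interferon genes, from 237 to 406 (1.72-fold). Irf1 was at 177 and 232. Among 14 genes of interferon receptors and induction, the 3 that rose, where 4.33% of all genes did, were RNA sensors and their adaptor: Ddx58 (RIG-I, 107 to 225), Ifih1 (MDA5, 73.6 to 123) and Mavs (81.1 to 127). Of 28 lineage and IRF factors, Stat2, Irf7 and Irf9 were the 3 that rose, beside the same 4.33%, and 1 fell, beside 3.15%, the C/EBPβ gene Cebpb (740.3 to 485, level-corrected log2 -0.27), which was also the 1 of 32 unfolded protein and ATF4 response genes past 1.5-fold. Not all members of the interferon list rose on the main scale. There 7 of 65 were lower at 6 h, among them Bst2 (tetherin), which was at 1443 and 1195 and whose direction turned after level correction (-0.27 and 0.26). Of those 7 only Ifi27l2a stayed lower after level correction (-0.16), and the others turned to values from 0.01 to 0.37.

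The guanylate-binding proteins (GBP) and immunity-related GTPases (IRG), which attack the vacuoles of intracellular pathogens, rose in every member that was analyzed. All 16 members that were analyzed, of 18 in the list, were at least 1.5-fold higher, 14 of them 2-fold or more, with a median change of 1.42. Gbp2 went from 33.4 to 174 (5.21-fold, 4.47 to 6.13), Gbp5 from 10.2 to 52.6 and Irgm1 from 162 to 331 (2.04-fold). Tgtp1 went from 6.56 to 36.9, and as it is a near copy of Tgtp2 its own share of reads is uncertain. These families lie in clusters of similar genes, and the same caution holds for them. Of the 2 members not analyzed, Gbp11 had 1 and 37 reads, whereas Gbp8 was lower at 6 h, at 7.52 and 5.44 scaled FPKM from 39 and 65 reads, 0.727 of its 0 h level with an interval of 0.479 to 1.10 that includes no change.

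The sequence before the start of these genes is shown because the letters of the interferon response element recur in it, beside 2 NF-κB targets that carry a different motif. Each line is the 150 bases that end just before the deposited start, on the gene's own strand, 5′ to 3′, from the mm9 genome, and capitals mark GAAANNGAA for the first 5 genes and GGANTTTCC for the last 2, on either strand (overlapping matches run together).
Ifit1, chr19:34715229-34715378, plus strand: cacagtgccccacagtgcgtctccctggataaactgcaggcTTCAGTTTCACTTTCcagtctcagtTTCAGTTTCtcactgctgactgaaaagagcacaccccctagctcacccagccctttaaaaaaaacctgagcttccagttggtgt
Ifit3, chr19:34657869-34658018, plus strand: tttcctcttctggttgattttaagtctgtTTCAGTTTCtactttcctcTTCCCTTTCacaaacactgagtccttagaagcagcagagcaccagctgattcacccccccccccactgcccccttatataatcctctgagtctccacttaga
Isg15, chr4:155574928-155575077, minus strand: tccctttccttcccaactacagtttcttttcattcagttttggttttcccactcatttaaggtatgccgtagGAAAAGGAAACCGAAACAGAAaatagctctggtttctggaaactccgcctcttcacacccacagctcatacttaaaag
Usp18, chr6:121195774-121195923, plus strand: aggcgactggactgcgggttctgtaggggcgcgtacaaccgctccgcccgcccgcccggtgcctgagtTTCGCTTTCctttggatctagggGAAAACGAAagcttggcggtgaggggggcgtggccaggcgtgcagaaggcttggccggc
Gbp2, chr3:142283477-142283626, plus strand: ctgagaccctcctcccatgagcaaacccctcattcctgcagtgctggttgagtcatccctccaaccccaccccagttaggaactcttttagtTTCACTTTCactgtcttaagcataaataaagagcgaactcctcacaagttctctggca
Nfkbia, chr12:56593635-56593784, minus strand: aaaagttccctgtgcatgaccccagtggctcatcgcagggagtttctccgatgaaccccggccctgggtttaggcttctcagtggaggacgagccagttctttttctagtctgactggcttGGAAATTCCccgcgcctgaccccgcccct
Cxcl2, chr5:91332775-91332924, plus strand: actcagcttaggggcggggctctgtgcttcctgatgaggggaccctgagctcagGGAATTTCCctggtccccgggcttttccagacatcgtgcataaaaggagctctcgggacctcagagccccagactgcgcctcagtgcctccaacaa
Ifit1 carried 3 matches, the first 109 and the last 84 bases before the start, Isg15 carried 3 that overlap between 78 and 66 bases before it, and Ifit3 and Usp18 carried 2 each. Gbp2 carried 1, 58 bases before the start. The match of Nfkbia began 29 bases and that of Cxcl2 96 bases before the start.

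Over a window from 250 bases before to 50 after the deposited start, searched on both strands, the letters GAAANNGAA occurred in 7.52% of the promoters of the 9897 genes. They occurred in 33.7% of those of the 104 genes at least 2-fold higher, in 17.0% of the 429 at least 1.5-fold higher and in 7.69% of the 312 lower. Among the lists it was 47.7% of the 65 interferon-stimulated genes and 75.0% of the 16 GBP and IRG genes, which share many members with the genes at least 2-fold higher. Read the other way, 9.81% of the 744 genes with the letters were at least 1.5-fold higher against 3.89% of the genes without. For GGANTTTCC 16 of 123 genes with the letters were higher against 4.23% of those without, and the shares were for TGANTCA 9.19% of 457 against 4.10%, for CACGTG 3.19% against 4.47% and for CCAAT 4.11% against 4.47%. The letters GGANTTTCC were rarer, in 1.24% of all promoters and 9.62% of the 104, and in 4 of 15 NF-κB genes and 5 of 15 chemokines. The AP-1 letters TGANTCA occurred in 4.62% of all and 12.5% of the 104, the E-box CACGTG in 10.4% and 7.69%, and CCAAT in 38.1% and 33.7%. GAAANNGAA and GGANTTTCC can share bases, and 15 promoters held both. A match describes letters and not a bound site. The lower coordinate of the gene equalled that of a transcript in the GENCODE annotation of this build for 5163 of the genes. That coordinate is the start of plus-strand genes but the far end of minus-strand genes, whose starts were not checked. A window may therefore not lie at a start.

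Among inflammatory enzymes, Nos2, the inducible nitric oxide synthase, rose the most, from 11.9 to 105 scaled FPKM, 8.74-fold (7.20 to 10.9) and the second largest change of all genes analyzed. Ch25h, which makes the antiviral oxysterol 25-hydroxycholesterol, went from 39.9 to 149.8 (3.75-fold), and Ptgs2 (cyclooxygenase-2) from 73.7 to 194 (2.63-fold). The caveolar coat gene Cav1 went from 9.35 to 25.3. These were the 4 past 2-fold among 50 effectors analyzed, of which 6 were at least 1.5-fold higher and 3 lower, beside 4.33% and 3.15% of all genes. After level correction 11 were higher and 0 lower, beside 3.89% and 1.85% of all genes, with Fpr1, Gpr84, Irg1, Ptges, Serpinb2 and Sod2 gained at 0.59 to 0.80 and Slc7a2 (0.52) lost. The 3 lower were Saa3 (0.592 of its 0 h level), the NADPH oxidase subunit Cyba (2208 and 1407) and Marco (0.655 of its 0 h level), and after level correction they stood at 0.003, -0.08 and -0.08.

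Of 19 feedback inhibitors, 4 were at least 1.5-fold higher, where 4.33% of all genes were. Besides Usp18 these were the pseudokinase gene Trib1 (72.5 to 109.9) and the cytokine-signaling suppressors Socs1 (27.6 to 64.0, 2.32-fold) and Socs3 (183 to 355, 1.94-fold). A further 3 negative regulators were within 1.5-fold: Tnfaip3 (A20) was at 222 and 298, Dusp1 at 431 and 544, and the mRNA-decay factor Zfp36 at 319 and 442. Their folds were 1.34, 1.26 and 1.38, all with intervals above 1, and after level correction Zfp36 passed 1.5-fold (log2 0.60) while Trib1 did not (0.55). Of 21 AP-1 and immediate-early factors, 3 were past 1.5-fold, beside the same 4.33%. These were Maff (33.1 to 65.7), the flow- and quiescence-associated factor Klf2 (108 to 202) and Fos (265 to 426, 1.61-fold). After level correction Ier3 was past it too (0.79, from 0.54). Egr1 was at 41.7 and 57.6.

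Of 31 antigen presentation genes 3 were at least 1.5-fold higher and 0 lower, with a median of 0.19, where 4.33% of all genes were higher. These were the early activation marker Cd69 (35.1 to 58.5), the costimulatory ligand Cd86 (61.0 to 94.5, 1.55-fold) and the class II chain H2-Ab1 (62.9 to 95.3, 1.52-fold). Cd40 was at 67.2 and 99.5, 1.48-fold with an interval of 1.27 to 1.73 that spans the 1.5-fold line. After level correction H2-Ab1 was under 1.5-fold (0.57), and Cd274 (0.74) and H2-T22 (0.62) were past it. Of 27 inflammasome and cell death genes 3 were higher, the anti-apoptotic Bcl2a1a (67.9 to 141) and Bcl2a1d (107 to 197), near copies whose reads cannot be told apart with certainty, and the death receptor Fas (135 to 203).

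**Figure D4:**
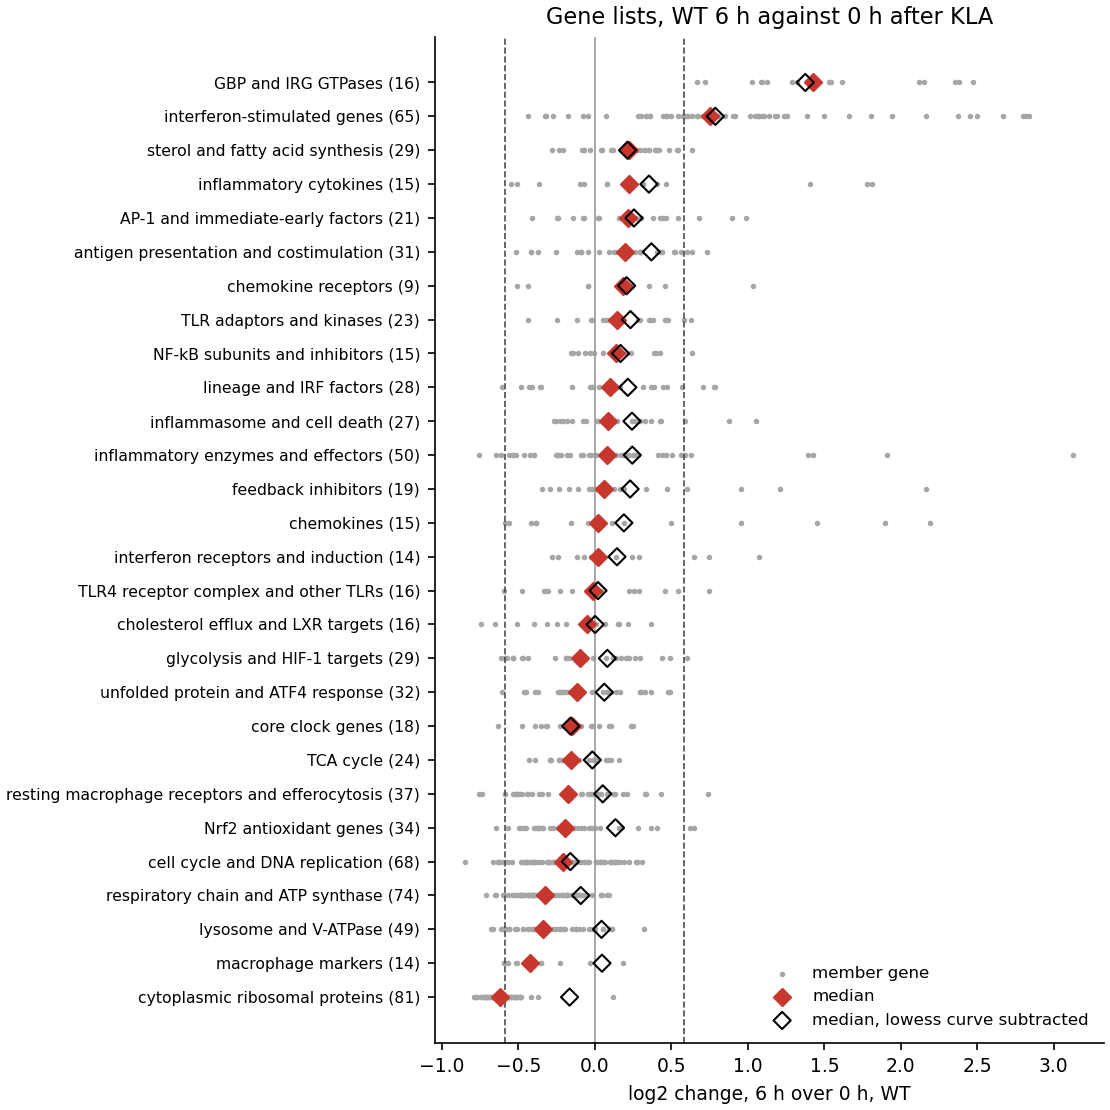
Log2 change from 0 to 6 h in WT BMDMs for the analyzed members (gray points) of 28 gene lists, with the number analyzed in parentheses, the median (red) and the median with the lowess curve subtracted (open). Dashed lines mark 1.5-fold. GBP and IRG GTPases and interferon-stimulated genes stand apart at medians of 1.42 and 0.75, and ribosomal proteins lie lowest at -0.62, moving to -0.17 with the curve subtracted.

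Genes of basic cell functions and of the resting macrophage were mostly lower at 6 h on the main scale, and their medians moved towards 0 after level correction. The counts below stand beside 3.15% of all genes at least 1.5-fold lower, and 1.85% after level correction. Of 81 cytoplasmic ribosomal protein genes, 80 were lower at 6 h and 56 at least 1.5-fold, with a median of -0.62. Rps29 was at 1493 and 863, Rplp2 at 1636 and 952 and Rps14 at 1481 and 869. After level correction the median was -0.17 and 0 were past 1.5-fold. In the Arntl-/- cells the median was 0.33, and 0.12 after level correction. Respiratory chain and ATP synthase genes had a median of -0.33 (-0.09 level-corrected) with 5 of 74 at least 1.5-fold lower, for example Ndufb7 (563 and 344), Cox4i1 (1349 and 856) and Cox6c (854 and 546), and 0 after level correction. For lysosome and V-ATPase genes (8 of 49 lower, such as Cd63, Lamp1 and Psap) the median turned from -0.34 to 0.04 after correction, and for 14 macrophage markers (3 lower: Ctss, Tyrobp and Itgam) from -0.43 to 0.05. In both lists 0 were past 1.5-fold after correction. The macrophage lineage factor Spi1 (PU.1) was at 1259 and 948, and its direction also turned (-0.41 and 0.04), as did that of Csf1r (-0.44 and 0.10).

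Of the genes lower in the lists of resting macrophage receptors and cholesterol efflux, Gas6 and Abca1 stayed past 1.5-fold on both scales. Gas6, the ligand that bridges apoptotic cells to Mertk, went from 603 to 357 (log2 -0.76, level-corrected -0.60), whereas Mertk itself was at 122 and 138. Of 16 cholesterol efflux and LXR target genes 2 were lower. The cholesterol efflux pump gene Abca1 went from 195 to 124 (-0.66 and -0.61). The mannose receptor gene Mrc1 went from 1077 to 645 and Apoe from 1789.6 to 1069.5, but at -0.49 and -0.20 neither passed 1.5-fold after correction. In the Arntl-/- cells Gas6 was at 485 and 302 and Abca1 at 184 and 145, a log2 change of -0.68 and -0.34. Of 37 resting macrophage receptors and efferocytosis genes, 4 were at least 1.5-fold lower, beside 3.15% of all genes, and after level correction Gas6 alone was, as Itgam, Sirpa and Mrc1 went to -0.0001, 0.005 and -0.49 and the list's median turned from -0.18 to 0.05. In the same list 1 was higher, the integrin Itgax (CD11c), which went from 8.27 to 13.9.

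Cell cycle and DNA replication genes had a median change of -0.21, with 7 of 68 at least 1.5-fold lower and 0 higher, where 3.15% of all genes were lower. After level correction the median was -0.16 and 5 were past 1.5-fold lower, while Pcna (-0.13), Mcm6 (-0.53) and Uhrf1 (-0.56) no longer were. The DNA polymerase α subunit gene Pola1 went from 125 to 69.2 (0.555 of its 0 h level, 0.517 to 0.595), and the replicative helicase genes Mcm7 and Mcm6 from 545 to 343 and from 617 to 398. This list, unlike the ribosomal one, was also lower in the Arntl-/- cells, with a median of -0.30 and 8 genes at least 1.5-fold lower there. In those cells 2.65% of all genes were at least 1.5-fold lower. The counts of the next lists stand beside 4.33% of all genes higher and 3.15% lower, and nothing is read from counts this small. In sterol and fatty acid synthesis 1 of 29 genes was higher, the isomerase gene Idi1 (115 to 179), with a median of 0.22, and Hmgcs1 was listed at 0 in all 8 libraries. Of 24 TCA cycle genes 0 passed 1.5-fold in either direction, and Mdh2 was at 695 and 568. Glycolytic Gapdh (2648 and 1762) and Pkm (3086 and 2012) were the 2 of 29 genes that were lower in their list, but both turned to 0.04 and 0.04 after level correction, and the HIF prolyl hydroxylase gene Egln3 was the 1 that was higher (117 to 178). Hif1a was at 254 and 275. Of 34 Nrf2 antioxidant genes 2 were higher, the cystine transporter gene Slc7a11 (78.4 to 121) and Osgin1 (91.0 to 143), and 1 lower, the ferritin gene Fth1 (11841 and 7548), which turned to 0.28 after correction.

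Clock genes were mostly within 1.5-fold between these times, as were 92.5% of all genes. The positive-arm genes Arntl and Clock were at 34.3 and 32.3 and at 50.3 and 49.3 scaled FPKM. Arntl, the deleted gene, was lower in the Arntl-/- libraries, at 13.9 and 11.3. Of 18 clock genes analyzed, 1 was past 1.5-fold: the repressor gene Per2 fell from 8.85 to 5.67 (109 and 161 reads, 0.645 of its 0 h level, 0.4996 to 0.825). Per1 was at 68.3 and 81.1, Cry1 at 39.6 and 46.7, and Cry2 at 37.6 and 30.1. The Rev-erb genes Nr1d1 and Nr1d2 were at 44.5 and 33.9 and at 70.6 and 60.2, and the output genes Dbp and Bhlhe40 at 33.9 and 26.4 and at 103 and 105. Nr1d1, Nr1d2, Cry2 and Dbp had counting intervals below 1 without reaching 1.5-fold.

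The interferon, cytokine and chemokine lists held 65, 15 and 15 of the 9897 genes analyzed. As these lists are small, nothing is read from the absence of their members among the 15 largest falls. The largest was Mir6236 (4976 to 1777), followed by Bend3 (19.0 to 7.18, 0.382 of its 0 h level), the mitochondrial leucyl-tRNA synthetase gene Lars2 (3439 to 1364), Lipn (67.4 to 27.7) and the EGF receptor substrate gene Eps8 (40.8 to 17.2). Among the rest were Rn45s, the ribosomal RNA precursor (14488 to 7355, or 1.37% and 0.775% of all reads on genes), and the nuclear noncoding RNA Malat1 (1157 to 569). Plxdc2, Mbnl3, Rnf150, D10Bwg1379e, Cand2, Cd3eap, Card14 and Myo9a were at 0.477 to 0.520 of their 0 h levels. In the Arntl-/- cells Eps8, Bend3 and Rnf150 were also lower (log2 -1.17, -0.90 and -0.90), whereas Mir6236, Lars2, Rn45s and Malat1 were higher (1.28, 0.87, 0.76 and 0.61). How much ribosomal RNA a polyA library retains can differ between libraries, and its part here was not tested.

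The same contrast in Arntl-/- cells shares no library with the WT contrast. There, 272 genes (2.75%) were at least 1.5-fold higher and 262 (2.65%) lower at 6 h. Of the 104 WT genes at least 2-fold higher, 69 (66.3%) were at least 1.5-fold higher in the Arntl-/- cells as well and 93 (89.4%) were higher, against 50.7% of all genes. Of the 429 at least 1.5-fold higher, 118 (27.5% of these, and 43.4% of the 272) were so in both genotypes, and 11 were at least 1.5-fold lower in the Arntl-/- cells. Of the 312 lower, 29 (9.29%, and 11.1% of the 262) were lower in both, 102 (32.7%) had any decrease there, and 20 were at least 1.5-fold higher. Across the 9897 genes, which are not independent and whose changes sloped with level in opposite directions in the genotypes, the changes correlated at Pearson's r = 0.22 and Spearman's rho = 0.04, and at 0.37 and 0.20 after level correction.

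Many of the shared rises were those of the interferon response. Of the 69 genes at least 2-fold higher in WT and 1.5-fold in Arntl-/-, 35 belonged to the interferon-stimulated or the GBP and IRG list, as did 47 of the 118, against 38 of the 104 and 57 of the 429 in WT. These lists held 80 of all 9897 genes analyzed. In the Arntl-/- cells 35 of the 65 interferon-stimulated genes were at least 1.5-fold higher and 0 lower (median 0.61), and 15 of 16 GBP and IRG genes (median 1.18). The share of all genes at least 1.5-fold higher in those cells was 2.75%. Ifit1 was at 24.4 and 228, Rsad2 at 84.9 and 477, Cxcl10 at 89.0 and 465, and Isg15 at 97.1 and 433 scaled FPKM. For these 4 genes the level at both times was higher in the Arntl-/- library than in the WT library. Nos2 was at 31.5 and 135, Il1b at 92.1 and 199, and Cxcl1 at 52.6 and 105. These 3 were higher at both times in the Arntl-/- library than in the WT library, and by more at 0 h, so their log2 changes were smaller, at 2.10, 1.11 and 0.99 against 3.13, 1.81 and 1.89 in WT. With 1 library per condition a difference between the genotypes in these changes could not be tested.

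**Figure D5:**
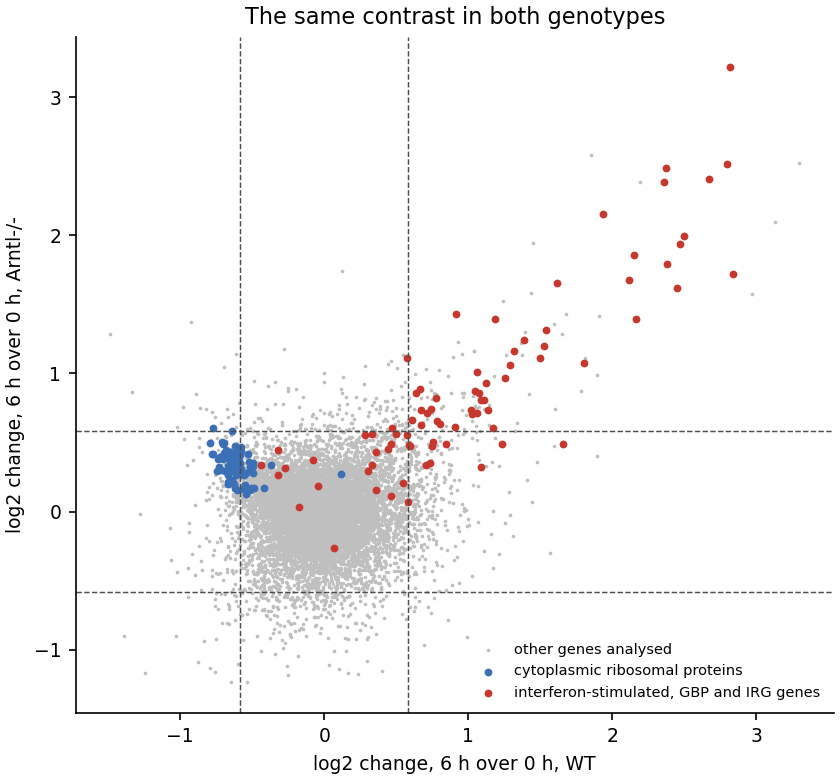
Log2 change from 0 to 6 h after KLA in WT (horizontal axis) and Arntl-/- BMDMs (vertical axis) for the 9897 genes analyzed, 1 library per genotype and time, with dashed lines at 1.5-fold. Interferon-stimulated, GBP and IRG genes (red) extend to the upper right, higher in both genotypes, while ribosomal protein genes (blue) lie at the upper left, lower at 6 h in WT and higher in Arntl-/-.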

How the data were processed

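PolyA RNA of WT and Arntl-/- BMDMs at 0, 6, 24 and 48 h after KLA was measured in 8 libraries. The authors aligned the reads, sequenced in pairs, with STAR (genome mm9), used HOMER to count exonic tags of RefSeq transcripts on either strand (per the file header, at most 3 tags per position and 1 transcript kept per gene), and deposited FPKM per 10000000 tags. No strand was used, so antisense and overlapping genes cannot be told apart. Multiplied by length, 100% of the low values lay on whole multiples of what 1 read is worth (tolerance 0.15), and reads and depths were recovered from this. Of the value columns, 4 belong to times that match no sample and were not used, and 1 line, a fragment, was left out.

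Libraries were scaled by the median of ratios over all 8. Changes are log2 with a pseudocount of 0.1, which understates those of low genes. The level correction subtracted a lowess curve (fraction 0.3). With 1 library a side no test was made, the smallest change counted was 1.5-fold, and counting intervals are Clopper-Pearson at 95%. The 35 gene lists were written by hand, and 1003 of their 1008 entries matched the table. Lists, members and settings were chosen with earlier results of these data known. The 145 genes of the naming rule were the 15 largest rises and 15 largest falls, up to 3 each way past 1.5-fold per list (otherwise the member with the highest level), and a fixed set of pathway genes. Lyz2, Emr1, Mpo, Elane, Flt3, Cxcl3, Gbp8, Gbp11, S100a8, S100a9, Csf3r, Trib1, Pcna, Uhrf1, Fpr1, Fpr2, Gpr84, Ptges, Serpinb2, Sod2, Slc7a2, Tlr2, Ier3, Cd274, H2-T22, Ifi27l2a and Sirpa were named outside it, after their values were seen. A few genes of the fixed set are not reported here. Alternatives were the deposited values, size factors of the WT pair alone, upper-quartile scaling, the level correction, pseudocounts of 1 and 0.01, the study's minimum of 100 in WT (9134 genes), a mean FPKM of at least 1, no filter, and 2-fold. Promoter bases were read from the mm9 genome at deposited coordinates, and the motif letters were set after longer forms had been searched. The steps were checked on simulated data. Software was matplotlib 3.10.9, statsmodels 0.14.6, scipy 1.17.1, pandas 2.3.3, numpy 2.4.6 and Python 3.11.15.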

Additional observations from a re-analysis of the deposited data

Results flagged for a closer look

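Of the genes named, 8 moved at least 1.5-fold in opposite directions from 0 to 6 h in the WT and the Arntl-/- cells, which drew attention to them, and with 1 library per condition the difference was not tested for any. Itgax (CD11c), an integrin of dendritic cells and some macrophages, was the only one higher in WT, with a log2 change of 0.74 against -0.73 in Arntl-/- cells, and it rested on 70 and 271 reads in WT. The transcription factor gene Cebpb was lower in WT (-0.61) and higher in Arntl-/- cells (1.14). The scavenger receptor gene Marco (-0.61 against 0.61) and the acute-phase gene Saa3 (-0.76 against 0.68) behaved alike. The remaining genes were the ribosomal RNA precursor Rn45s (-0.98 against 0.76), Malat1 (-1.02 against 0.61), Lars2 (-1.33 against 0.87) and Mir6236 (-1.49 against 1.28). All 7 genes that were lower in WT were above the median of the genes analyzed in level, and the WT library at 6 h and the Arntl-/- library at 0 h were the deeper of their pairs. The part of depth was not tested. After level correction the WT changes of Marco, Saa3, Rn45s and Cebpb were -0.08, 0.003, -0.01 and -0.27, and those of Mir6236, Lars2 and Malat1 were -0.77, -0.68 and -0.57. The corrected Arntl-/- changes of Marco, Saa3, Rn45s, Lars2 and Malat1 were 0.36, 0.35, 0.34, 0.57 and 0.39, all under 1.5-fold, and those of Cebpb and Mir6236 were both 0.96. Itgax stood at 0.68 in WT and -0.59 in Arntl-/- cells.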

How the results depend on the processing

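With the deposited values 848 genes were at least 1.5-fold higher and 70 lower, and 61.0% of the higher genes were also higher in Arntl-/- cells (71.3% as reported). After level correction 183 were lower and that share was 82.3%. A mean FPKM of at least 1 gave 1669 higher, 1029 lower and 56.6%, no filter gave 3096, 1681 and 44.8%, and 2-fold gave 104 and 10. The median of the cytokines was 0.38, 0.35 and 0.43 with the deposited values, the level correction and an FPKM of at least 1. With the deposited values it was 0.29 for NF-κB genes and 0.91 for interferon-stimulated genes. Medians changed sign with the deposited values for glycolysis (0.057), the TCA cycle (0.003), clock genes (0.009) and the unfolded protein response (0.041). After level correction they did so for resting macrophage receptors (0.051), glycolysis (0.081), lysosome (0.043), Nrf2 genes (0.13), the unfolded protein response (0.061) and the macrophage (0.046), dendritic (0.26) and erythroid (0.003) markers, and with an FPKM of at least 1 for chemokine receptors (-0.004) and neutrophil markers (-0.14). Gapdh (0.042), Ctss (0.054), Psap (0.12), Pkm (0.04), Fth1 (0.28) and Saa3 (0.003) turned after level correction. The cause was not tested, beyond the wider set of low genes that the looser filters let in. Of 99 named genes past 1.5-fold, 77 stayed past it with the deposited values (the 22 lost were falls) and 72 after level correction (1 rise and 26 falls lost), and 91 to 99 under the other scalings and pseudocounts. Leaving out the 26 genes that passed only through the WT 6 h library, an alternative chosen after seeing the data, gave 422 higher and 312 lower and changed no call of a named gene, with Pdgfrb among those left out. No paired analysis was possible because each condition had 1 library. Genes under about 3 reads cannot be called absent, and highly expressed genes depend on the level correction.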
